A study of Mus musculus with 8 samples.

Results

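The genes described here are 50 genes of DNA replication, mitosis and the cell cycle checkpoints, measured in spleen and lymph node of Aire wild-type and Aire knockout mice. Where several probe sets carried a member's symbol alone, the one with the highest mean over the arrays stood for it. Of the 50 genes, 49 were measured among 18193 genes, and 46 of the 11557 genes that passed the filter on low signals were members. Ccnb1 was not analysed here, and Foxm1, Bub1b and Ttk did not pass the filter, which asked for a signal above 59.0, the median of all values, on at least 2 arrays. The members were listed by function, but earlier results of these data were known when they were chosen.

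RNA had been hybridised to 8 Affymetrix arrays, 2 for each combination of tissue and genotype. The 4 groups were spleen Aire-wild-type, spleen Aire-knockout, lymph node Aire-wild-type and lymph node Aire-knockout, and the arrays of each carried the letters A and B. Strain, age, sex, the knockout allele, any sorting of cells and the meaning of the letters are not given in the labels. Nor do the labels say that the arrays of a group, or those of spleen and lymph node, came from separate animals. The p-values therefore measure only the spread between these arrays, part of which may be technical. Aire makes cells of the thymus express antigens of other tissues, and the study concerned cells that express it outside that organ.

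A dividing cell first licenses its replication origins by loading the MCM helicase, copies its DNA in S phase with a large supply of nucleotides, and then separates the copies on a mitotic spindle. E2F factors drive many of the genes of S phase, whereas genes of G2 and mitosis are often controlled through CHR elements and CCAAT boxes bound by the DREAM and MuvB complexes and NF-Y. In spleen and lymph node these transcripts are plentiful in activated lymphocytes, plasmablasts, erythroid and myeloid precursors, and scarce in resting lymphocytes.

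Promoters of 6 members are shown because they hold examples of these elements in genes of both phases. Each is the 250 bases before the start of the gene in RefSeq, build GRCm38.p6, written 5′ to 3′, with every match to a motif on either strand in capitals.
Hells, chr19:38930740-38930989, plus strand: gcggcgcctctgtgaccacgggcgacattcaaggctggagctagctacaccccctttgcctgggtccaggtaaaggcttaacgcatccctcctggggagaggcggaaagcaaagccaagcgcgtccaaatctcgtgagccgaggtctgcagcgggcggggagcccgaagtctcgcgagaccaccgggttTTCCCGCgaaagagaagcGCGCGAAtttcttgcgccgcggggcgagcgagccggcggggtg
Uhrf1, chr17:56303087-56303336, plus strand: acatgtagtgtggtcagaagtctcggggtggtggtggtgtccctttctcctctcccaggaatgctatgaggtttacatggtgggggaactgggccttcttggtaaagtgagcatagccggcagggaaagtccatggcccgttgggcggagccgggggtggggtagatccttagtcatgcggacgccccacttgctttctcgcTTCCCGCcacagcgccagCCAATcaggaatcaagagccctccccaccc
Mcm6, chr1:128359706-128359955, minus strand: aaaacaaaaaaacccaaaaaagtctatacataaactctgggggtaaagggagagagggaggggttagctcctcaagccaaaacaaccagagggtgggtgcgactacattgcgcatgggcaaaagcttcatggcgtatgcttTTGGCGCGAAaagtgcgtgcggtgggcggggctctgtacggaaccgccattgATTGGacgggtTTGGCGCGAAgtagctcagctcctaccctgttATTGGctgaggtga
Bub1, chr2:127831860-127832109, minus strand: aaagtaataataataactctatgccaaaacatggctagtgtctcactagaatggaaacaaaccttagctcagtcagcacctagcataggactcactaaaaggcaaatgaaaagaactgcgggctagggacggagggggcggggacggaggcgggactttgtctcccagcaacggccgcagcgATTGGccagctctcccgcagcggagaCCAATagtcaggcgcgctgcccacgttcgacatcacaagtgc
Cenpa, chr5:30666636-30666885, plus strand: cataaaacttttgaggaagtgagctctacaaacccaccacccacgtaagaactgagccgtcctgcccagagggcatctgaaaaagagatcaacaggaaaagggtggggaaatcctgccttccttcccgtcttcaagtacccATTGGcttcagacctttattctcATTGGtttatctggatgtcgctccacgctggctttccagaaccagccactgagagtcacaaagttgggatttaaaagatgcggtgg
Kif2c, chr4:117178773-117179022, minus strand: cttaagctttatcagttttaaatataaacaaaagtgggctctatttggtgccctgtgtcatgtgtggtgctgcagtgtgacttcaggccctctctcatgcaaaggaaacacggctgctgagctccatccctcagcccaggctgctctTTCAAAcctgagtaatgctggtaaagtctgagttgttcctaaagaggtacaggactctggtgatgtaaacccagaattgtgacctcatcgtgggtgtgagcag
The capitals in Hells mark E2F sites, those in Uhrf1 and Mcm6 both E2F sites and CCAAT boxes, those in Bub1 and Cenpa CCAAT boxes, and those in Kif2c a CHR element. In each capital run of 10 bases in Mcm6, an E2F match on each strand overlapped the other.

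Motifs were searched on both strands. An E2F site was the run of letters GCGGGAA, or as another form GCGCGAA, or as a further form GCGGCAA, or lastly the form GCGCCAA. A CHR element was TTTGAA or else the variant TTCGAA. For the CCAAT box the letters were those of its name. Promoters were found for 41 of the 50 genes, and 3 of these had more than 1 entry, of which the first was used. An E2F motif was present in 11 of the 41 (26.8%), against 7.97% of the promoters of 27025 genes. It was found in 8 of 15 replication genes (53.3%) and in 1 of 18 mitosis genes (5.56%), Mki67. A CCAAT box was present in 28 of the 41 (68.3%), against 34.5% of all promoters, and a CHR element in 12 (29.3%), against 17.4%. Both CHR and CCAAT motifs stood in 11 promoters (26.8%), against 6.21% of all. These matches describe the letters of the windows and say nothing about binding in these samples.

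The cell cycle genes stood higher in the knockout arrays of both tissues, and in spleen most of that difference lay on the knockout A array. In lymph node the median difference was 0.85 between the A arrays and 0.58 between the B arrays. In spleen, 40 of the 46 tested members had a knockout minus wild-type difference above 0, against 42.6% of all genes tested, and in lymph node 41 of 46, against 46.8%. The median over the members was 1.02 on the log2 scale in spleen, where all genes had a median of -0.09, and 0.7 in lymph node, where it was -0.03. Averaged over the tissues, 42 of 46 were above 0, against 43.3% of all genes, with a median of 0.98 against -0.06. A difference of 1 on this scale is a 2-fold difference in signal. Of the 46, 9 passed the filter only through knockout arrays, namely Tyms, Ccne2, Chek1, Bub1, Ndc80, Nuf2, Plk1, Aurkb and Kif2c, as did 1.86% of all genes tested. Each of these had to be higher on some knockout array, so their knockout differences are given as a description. Of the other 37 members, 31 were above 0 in spleen, 33 in lymph node and 33 in the average, with medians of 0.93, 0.66 and 0.83. In RNA from a mixture of cells, more cells of a type and more RNA per cell cannot be told apart.

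No member passed an adjusted p of 0.05 by limma with Benjamini-Hochberg adjustment over all genes in spleen, in lymph node or averaged, and nor did any other gene (0% in each). At an unadjusted p under 0.05, 11 members were higher in knockout spleen (3.86% of all genes) and 1 was lower (4.56%). In lymph node 6 were higher (1.74%), and in the average 14 were higher (3.65%) and 1 was lower (4.34%). Without the 9 members that passed only through knockout arrays, 7, 2 and 10 were higher in spleen, in lymph node and on average. The median of the averaged difference over the members was 1.34 without the knockout spleen B array and 0.59 without knockout spleen A. It was 0.69 without knockout lymph node A and 0.78 without wild-type lymph node B. In spleen the median was 2.03 without knockout spleen B and 0.31 without knockout spleen A. In lymph node it was 0.39 without knockout A, 0.53 without wild-type B and 1.2 without knockout B.

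The knockout A arrays stood apart from the other 6 arrays. The median log2 signal of the tested members was 8.8 on knockout spleen A and 8.02 on knockout lymph node A, and between 5.89 and 6.88 on the rest. Of the 46 members, 36 had their highest value on knockout spleen A, against 18.8% of all genes. Both knockout A arrays were above the other 6 arrays for 30, against 8.86%. Of the 36, 3 passed the filter only through knockout arrays, as did 4 of the 30. Of the members that peaked elsewhere, Mcm5, Cdc45 and Tk1 did so on wild-type spleen A, and Cenpa on wild-type spleen B. Ccne2, Chek1, Plk1 and Kif2c peaked on knockout lymph node A, and Tyms and Bub1 on knockout lymph node B.

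Arrays of the same letter were also compared, A with A and B with B. Knockout minus wild-type had a median over the members of 1.77 between the spleen A arrays, with 42 of 46 above 0, and of 0.27 between the spleen B arrays, with 29 above 0. In lymph node it was 0.85 with 43 above 0 between the A arrays, and 0.58 with 33 above 0 between the B arrays. With both knockout A arrays left out, a comparison added after the data were seen, the median was 0.31 in spleen with 28 members above 0, 0.39 in lymph node with 32, and 0.33 averaged with 29. Each knockout group is then 1 array, assumed to vary like the wild-type arrays, which alone give the spread.

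**Figure D1:**
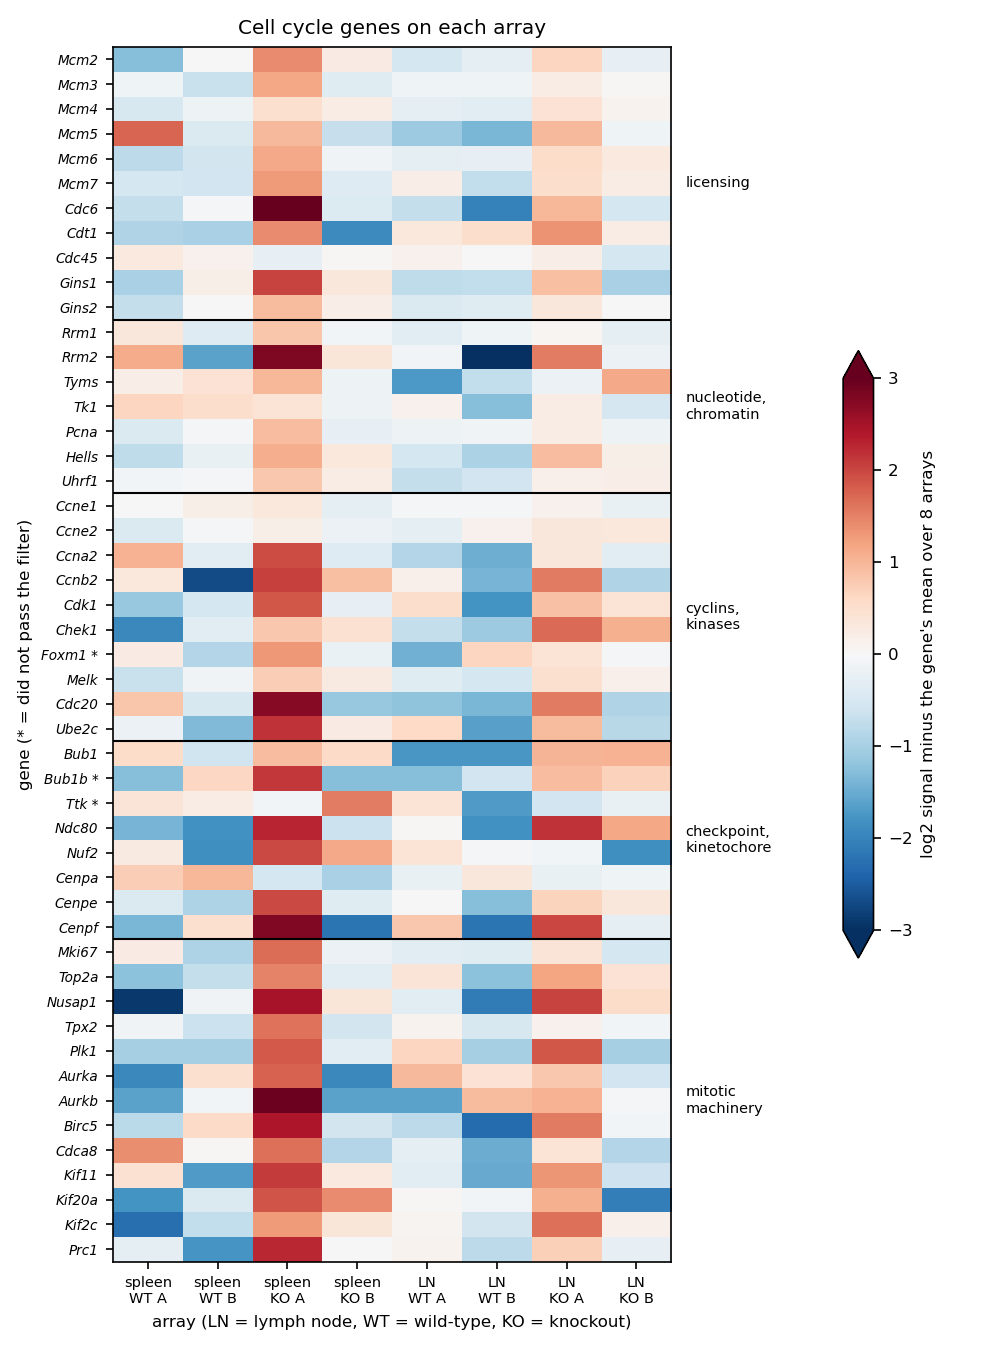
Log2 signal of the 49 measured cell cycle genes (rows, ordered by role) on the 8 arrays (columns), as the difference from each gene's mean over the arrays; colours end at 3 and -3 and an asterisk marks the 3 genes that did not pass the filter. The column of knockout spleen A is the reddest, with the highest value of 36 of the 46 tested genes, followed by that of knockout lymph node A.

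Counts of members whose arrays did not overlap were made on signals. In spleen, 23 members had both knockout arrays above both wild-type arrays (13.3% of all genes) and 3 had them below (23.9%), namely Cdc45, Tk1 and Cenpa. In lymph node 23 were above (14.6%) and 1, Nuf2, was below (16.2%). In both tissues at once 15 members were above, against 3.06% of all genes. All 4 knockout arrays were above all 4 wild-type arrays for 10 members, against 1.44%. These were Mcm4, Mcm6, Gins2, Hells, Uhrf1, Chek1, Melk, Bub1, Nusap1 and Kif2c, from every role group. Of these 10, Chek1, Bub1 and Kif2c passed the filter only through knockout arrays, as did 4 of the 15, 6 of the 23 in spleen, 6 of the 23 in lymph node, and Nuf2.

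The licensing and initiation genes load the helicase and start replication. Of the 11 tested, 10 were higher in the knockout on average (43.3% of all genes), with a median of 0.75. In what follows, signals are given for array A and then array B of each group. Mcm6, a helicase subunit, had signals of 981 and 1158 in wild-type spleen, 3706 and 1574 in knockout spleen, 1399 and 1415 in wild-type lymph node, and 2466 and 2069 in knockout lymph node. All knockout arrays lay above all wild-type arrays. The averaged difference was 0.93 ± 0.31 (SE, log2) with an adjusted p of 0.529 by limma, and 0.56 without the knockout A arrays. For Mcm4, another subunit, they were 815 and 1032 in wild-type spleen, 1600 and 1342 in knockout spleen, 940 and 920 in wild-type lymph node, and 1533 and 1229 in knockout lymph node. The groups again did not overlap, and its difference was 0.62 ± 0.22 (adjusted p = 0.55).

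Mcm5 had 2916 and 650 in wild-type spleen, 1724 and 540 in knockout spleen, 410 and 338 in wild-type lymph node, and 1726 and 798 in knockout lymph node. It was low on the B arrays of every group relative to A, and its knockout difference was -0.51 ± 0.84 in spleen and 1.66 ± 0.84 in lymph node (adjusted p of 0.9 and 1 by limma). The other Mcm5 probe set past the filter gave 0.52 in spleen, of opposite sign, and 2.16 in lymph node. The signal of Mcm7 was 379 and 365 in wild-type spleen, 1316 and 418 in knockout spleen, 629 and 328 in wild-type lymph node, and 785 and 642 in knockout lymph node. Here the knockout arrays were above the wild-type arrays within each tissue, and knockout spleen A stood far above the rest. Cdt1, which loads the helicase, gave 185 and 175 in wild-type spleen, 915 and 91.2 in knockout spleen, 428 and 495 in wild-type lymph node, and 874 and 401 in knockout lymph node. High values came on the knockout A arrays, and knockout spleen B was the lowest of all. Cdc45, a part of the active helicase, had 134 and 118 in wild-type spleen, 91.7 and 111 in knockout spleen, 119 and 109 in wild-type lymph node, and 125 and 75.4 in knockout lymph node. Its averaged difference was -0.28 ± 0.25, opposite in sign to most members, with an adjusted p of 0.813 by limma. The other Cdc45 probe set, which did not pass the filter, gave 0.93.

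Genes of nucleotide supply, the sliding clamp and chromatin numbered 7 among those tested. Of these, 6 were higher in the knockout on average (43.3% of all genes), with a median of 0.7. Tyms among the 7 passed the filter only through knockout arrays. Hells, a chromatin remodeller, had signals of 50.1 and 73.1 in wild-type spleen, 182 and 106 in knockout spleen, 59 and 44.1 in wild-type lymph node, and 162 and 96.6 in knockout lymph node. Every knockout array was above every wild-type array. The difference was 1.2 ± 0.44 in spleen, 1.29 ± 0.44 in lymph node and 1.25 ± 0.31 averaged, with an adjusted p of 0.391 by limma for the last. For Uhrf1, which helps copy DNA methylation, the signals were 1825 and 1895 in wild-type spleen, 3402 and 2273 in knockout spleen, 1179 and 1307 in wild-type lymph node, and 2143 and 2215 in knockout lymph node. The genotypes did not overlap, and the averaged difference of 0.7 ± 0.23 (adjusted p = 0.513) was 0.56 without the knockout A arrays.

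Rrm2, the S phase subunit of ribonucleotide reductase, had 1043 and 159 in wild-type spleen, 3399 and 626 in knockout spleen, 460 and 30.8 in wild-type lymph node, and 1414 and 431 in knockout lymph node. A exceeded B in each group, and the genotypes overlapped. The averaged knockout difference was 2.28 ± 1.08 (adjusted p = 0.67 by limma). Tk1, a thymidine kinase, was at 235 and 216 in wild-type spleen, 199 and 134 in knockout spleen, 164 and 61.7 in wild-type lymph node, and 174 and 105 in knockout lymph node. Both knockout spleen arrays were under both wild-type spleen arrays, and in lymph node the genotypes overlapped. Its averaged difference of -0.02 ± 0.38 turned positive under several settings, among them no median scaling (0.06) and quantile normalization (0.01). Tyms, which makes thymidylate, was near the filter at 36.4 and 42.7 in wild-type spleen, 63.1 and 28.6 in knockout spleen, 5.71 and 19 in wild-type lymph node, and 28 and 69.6 in knockout lymph node. It passed through 1 array of each tissue in the knockout.

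**Figure D2:**
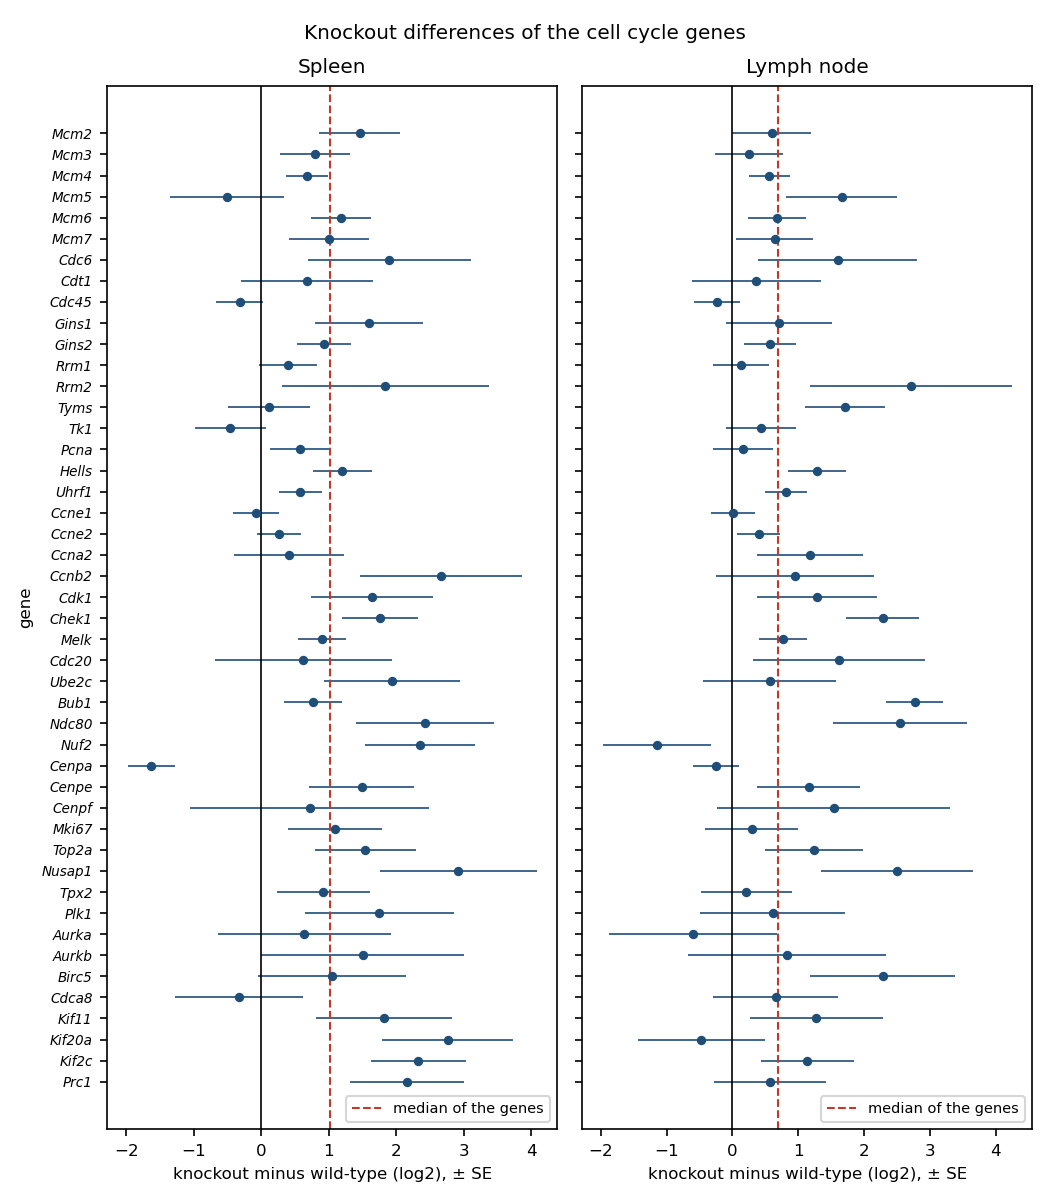
Knockout minus wild-type difference (log2, horizontal axis) of each of the 46 tested cell cycle genes in spleen (left) and lymph node (right); points are limma estimates, bars 1 SE, and the dashed line the median of the genes. The medians are 1.02 in spleen and 0.7 in lymph node, and Cenpa is the lowest point in spleen at -1.63.

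Among cyclins, kinases and their regulators 8 of the 9 tested were higher in the knockout on average (43.3% of all genes), with a median of 1.12. Ccne2 and Chek1 among the 9 passed the filter only through knockout arrays. Chek1, the kinase of the replication checkpoint, had signals of 4.31 and 29.4 in wild-type spleen, 64 and 50.2 in knockout spleen, 22.3 and 17 in wild-type lymph node, and 117 and 75.8 in knockout lymph node. The knockout arrays lay above every wild-type array. It passed the filter only through knockout arrays, so the averaged difference of 2.02 ± 0.4 is a description (4.04-fold, adjusted p = 0.248 by limma). The 2 other Chek1 probe sets that passed the filter gave 2.77 and 1.92, and without the knockout A arrays the difference was 1.77. Melk, a mitotic kinase, had 125 and 186 in wild-type spleen, 335 and 242 in knockout spleen, 156 and 139 in wild-type lymph node, and 280 and 223 in knockout lymph node. Again no wild-type array reached a knockout array, with a difference of 0.83 ± 0.25 (adjusted p = 0.479) that was 0.63 without the knockout A arrays.

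Ube2c, the ubiquitin-conjugating enzyme of the anaphase-promoting complex, had 189 and 85.3 in wild-type spleen, 946 and 251 in knockout spleen, 321 and 68.5 in wild-type lymph node, and 407 and 120 in knockout lymph node. A was above B in every group, and both knockout arrays were above both wild-type arrays in spleen but not in lymph node. The mitotic cyclin gene Ccnb2 gave 76.3 and 4.25 in wild-type spleen, 257 and 115 in knockout spleen, 68.6 and 23.2 in wild-type lymph node, and 182 and 32.8 in knockout lymph node. Ccna2, the cyclin of S phase and G2, gave 423 and 165 in wild-type spleen, 789 and 156 in knockout spleen, 111 and 74.6 in wild-type lymph node, and 260 and 165 in knockout lymph node. In both cyclins A exceeded B in all 4 groups, and Ccnb2 was higher in knockout spleen without overlap. Ccne1, a G1 cyclin, was at 116 and 133 in wild-type spleen, 146 and 95.4 in knockout spleen, 113 and 112 in wild-type lymph node, and 129 and 99.8 in knockout lymph node. The 8 arrays differed little, and its averaged difference was -0.03 ± 0.24, with 0.04 when arrays were not scaled to a common median. The other E-type cyclin, Ccne2, was at 38 and 49.5 in wild-type spleen, 58.6 and 46 in knockout spleen, 41.9 and 56.7 in wild-type lymph node, and 64.9 and 63.9 in knockout lymph node. It passed the filter through the knockout lymph node arrays. Foxm1, a transcription factor of G2 genes, did not pass the filter, at 31 and 14.4 in wild-type spleen, 64.8 and 22.8 in knockout spleen, 9.73 and 40.8 in wild-type lymph node, and 34.7 and 25.1 in knockout lymph node.

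Of the 6 tested genes of the spindle checkpoint and the kinetochore, 5 were higher in the knockout on average (43.3% of all genes). Their median was 1.23. Bub1, Ndc80 and Nuf2 among the 6 passed the filter only through knockout arrays, so this count and median are a description. Bub1, a checkpoint kinase, had 46.7 and 21.2 in wild-type spleen, 60.6 and 47.5 in knockout spleen, 7.18 and 7.86 in wild-type lymph node, and 64.5 and 66.2 in knockout lymph node. No knockout array lay under a wild-type array, but in spleen the margin was narrow, 47.5 against 46.7. It was below the floor of 9.58 on both wild-type lymph node arrays, so that its difference there, 2.77 ± 0.43, is a lower bound on the change, of at least 6.82-fold. In spleen the difference was 0.77 ± 0.43. The average was 1.77 ± 0.3 (adjusted p = 0.204 by limma), and 1.69 without the knockout A arrays. Bub1 exceeded 59.0 only on knockout arrays, so these differences too are a description.

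Ndc80, an outer kinetochore protein, had 12.7 and 3.44 in wild-type spleen, 165 and 21.5 in knockout spleen, 34.5 and 4.32 in wild-type lymph node, and 152 and 74.7 in knockout lymph node. Nuf2, its partner in the same complex, had 41.1 and 4.89 in wild-type spleen, 134 and 75.7 in knockout spleen, 45.3 and 33.6 in wild-type lymph node, and 32.3 and 3.15 in knockout lymph node. In spleen both genes were higher on the knockout arrays without overlap, whereas in lymph node Ndc80 was higher and Nuf2 lower. Ndc80 differed by 2.43 ± 1.02 in spleen and 2.55 ± 1.02 in lymph node, and Nuf2 by 2.35 ± 0.82 and -1.15 ± 0.82. Both passed the filter only through knockout arrays, Nuf2 only through those of spleen. Cenpa, the histone H3 variant of centromeres, was opposite to the others, at 1124 and 1348 in wild-type spleen, 466 and 341 in knockout spleen, 579 and 855 in wild-type lymph node, and 577 and 611 in knockout lymph node. Both knockout spleen arrays lay well under the wild-type ones, and in lymph node the genotypes overlapped. The difference in spleen was -1.63 ± 0.35 (adjusted p = 0.331 by limma), and the average was -0.94 ± 0.25, or -1.03 without the knockout A arrays. The other Cenpa probe sets had averages of -0.68 and -1.22.

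Bub1b, a checkpoint protein that did not pass the filter, was at 3.22 and 35.8 in wild-type spleen, 101 and 7.28 in knockout spleen, 7.75 and 15.7 in wild-type lymph node, and 44.4 and 37.7 in knockout lymph node. Ttk, a checkpoint kinase, also did not pass, at 40.7 and 35.9 in wild-type spleen, 29.2 and 89.5 in knockout spleen, 41.2 and 5.4 in wild-type lymph node, and 20.9 and 26.5 in knockout lymph node. Each exceeded 59.0 on 1 array, knockout spleen A for Bub1b and knockout spleen B for Ttk.

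All 13 genes of the mitotic kinases, motors, chromosomes and cytokinesis were higher in the knockout on average (43.3% of all genes). Their median was 1.18. Plk1, Aurkb and Kif2c among the 13 passed the filter only through knockout arrays. Nusap1, a microtubule-binding protein of the spindle, had 0.871 and 66.7 in wild-type spleen, 401 and 91.9 in knockout spleen, 57.3 and 16.7 in wild-type lymph node, and 292 and 106 in knockout lymph node. The knockout arrays were above all wild-type arrays. The averaged difference of 2.71 ± 0.82 was the largest of the members, 6.56-fold, with an adjusted p of 0.476 by limma and a value of 1.82 without the knockout A arrays. It ranged from 2.01 without wild-type spleen A to 3.41 without wild-type spleen B. Kif2c, a kinesin that takes microtubules apart, had 9.86 and 28.2 in wild-type spleen, 114 and 61.2 in knockout spleen, 50.4 and 32.5 in wild-type lymph node, and 149 and 52.9 in knockout lymph node. It too had no overlap, although the lowest knockout and highest wild-type arrays of lymph node were 52.9 and 50.4. Its averaged difference was 1.73 ± 0.5 (adjusted p = 0.438), and 1.13 without the knockout A arrays, again for a gene that passed the filter only through knockout arrays.

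Kif11, the motor that pushes spindle poles apart, had 151 and 33.8 in wild-type spleen, 474 and 135 in knockout spleen, 87.2 and 38.7 in wild-type lymph node, and 273 and 71.3 in knockout lymph node. Cdca8, a part of the chromosomal passenger complex, had 2013 and 780 in wild-type spleen, 2406 and 414 in knockout spleen, 617 and 273 in wild-type lymph node, and 1016 and 415 in knockout lymph node. For both genes the A array was the higher in each group, and the genotypes overlapped. Plk1, a mitotic kinase, was at 6.75 and 5.6 in wild-type spleen, 68.8 and 15 in knockout spleen, 29.9 and 7.24 in wild-type lymph node, and 69.9 and 3.68 in knockout lymph node. Aurkb, the kinase of the passenger complex, was at 5.89 and 27.6 in wild-type spleen, 222 and 6.92 in knockout spleen, 6.05 and 56.1 in wild-type lymph node, and 59.7 and 28.4 in knockout lymph node. Each of the 2 kinases passed the filter through the knockout A arrays alone, so their values above 59.0 are those of the arrays that stood apart.

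**Figure D3:**
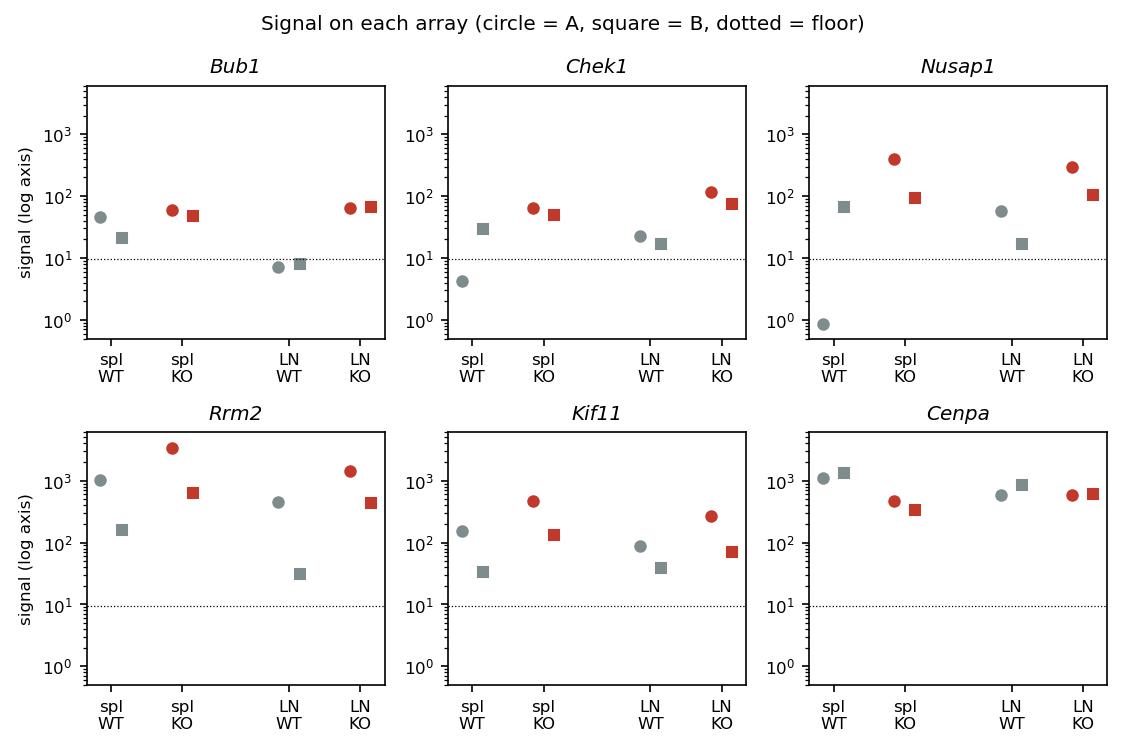
Signal of 6 cell cycle genes on each array (vertical log axis; circles are A arrays, squares B arrays, grey wild-type, red knockout; spl is spleen and LN lymph node), with the floor of 9.58 dotted. The red points of Bub1, Chek1 and Nusap1 lie above the grey ones, and those of Cenpa lie below in spleen. For Rrm2 and Kif11 the circle lies above the square in each group, and red above grey within each tissue and letter.

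The knockout difference was compared between the tissues directly. Spleen minus lymph node in the knockout difference was above 0 for 28 of 46 members, against 46.2% of all genes, with a median of 0.31. No member passed the adjusted threshold by limma (0% of all genes). At an unadjusted p under 0.05, 1 member was higher in spleen (1.52% of all genes), Nuf2, which had passed the filter only through knockout spleen, and 2 were lower (1.89%). Without knockout spleen A the median was -0.48 with 10 members above 0, and without knockout spleen B it was 1.2 with 39 above 0. The median was 0.52 without knockout lymph node A, -0.06 without wild-type lymph node A and -0.11 without knockout lymph node B.

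Between spleen and lymph node themselves the median difference of these genes was small. Averaged over genotypes, 31 of 46 members were higher in spleen, against 55.7% of all genes, and the median was 0.15 against 0.06. Not 1 member had all 4 spleen arrays above all 4 lymph node arrays (3.82% of all genes) or below them (1.9%). By limma no member passed the adjusted threshold (0% of all genes). At an unadjusted limma p under 0.05, 1 was higher in spleen (6.23%), Bub1, at 0.71 ± 0.3. Its log2 mean was 4.97 in wild-type spleen and 3.26 in wild-type lymph node, where both arrays were under the floor. In the knockout the order was reversed, with 5.74 in spleen and 6.03 in lymph node. Bub1 passed the filter only through knockout arrays. Other members with small p-values were Uhrf1 at 0.47 ± 0.23, Ccna2 at 1.15 ± 0.57, Tk1 at 0.72 ± 0.38 and Cdt1 at -1.2 ± 0.7, with adjusted p from 0.529 to 0.59. Without knockout spleen A the median was -0.02 with 21 members higher in spleen, and without knockout spleen B it was 0.58 with 41. The median was 0.14 without wild-type spleen B, 0.18 without wild-type spleen A and 0.09 without wild-type lymph node B.

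The A arrays exceeded the B arrays in the cell cycle genes, and by a larger median in the knockout than in the wild-type. With a covariate for Y-linked genes that order turned, with medians of 1.81 in the knockout and 2.23 in the wild-type. It turned in all genes too, from medians of 0.07 in the knockout and -0.11 in the wild-type to 0.35 and 0.76. Over the 4 groups, A minus B was above 0 for 42 of 46 members, against 47.4% of all genes, with a median of 0.72 against -0.03. In the knockout it was above 0 for 45 members, against 54.7%, with a median of 1.29. Among the 37 members that passed the filter also through wild-type arrays it was above 0 for 37, with a median of 1.33. In the wild-type it was above 0 for 26 members, against 39.2%, with a median of 0.26, and for 31 of 46 after quantile normalization. By group, the median was -0.12 in wild-type spleen, 1.67 in knockout spleen, 0.41 in wild-type lymph node and 0.83 in knockout lymph node. A was above B in all 4 groups for 16 members (8.05% of all genes). It was above B in both knockout groups for 41 (32.7%) and in both wild-type groups for 17 (18.9%). Of these, 2, 7 and 2 passed the filter only through knockout arrays.

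By limma with the adjustment over all genes, no member passed for A minus B over the 4 groups (0% of all genes), in the knockout (0.00865%) or in the wild-type (0.00865%). At an unadjusted p under 0.05, 15 members were higher on A over the 4 groups (5.86%) and 19 in the knockout (7.8%). In the wild-type 5 were higher (3.07%) and 1 was lower (2.86%). Without the 9 members that passed the filter only through knockout arrays, 12, 16 and 5 were higher. With a trended robust prior in place of the plain one, 3 members passed over the 4 groups, Rrm2, Ube2c and Cdca8, among 34 of all genes tested. Under that prior Cdt1, Rrm2, Cdc20 and Cdca8 passed in the knockout, among 123 of all genes, and Rrm2 in the wild-type, among 13. Without wild-type spleen A or B the median over the 4 groups was 1.01. In the knockout the median was 0.8 without knockout spleen A and 0.94 without knockout spleen B.

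Rrm2 had the largest A minus B difference over the 4 groups, 2.69 ± 0.38 (adjusted p = 0.217 by limma), a 6.47-fold difference seen in 4 of 4 groups. It was 2.08 ± 0.47 in the knockout and 3.31 ± 0.47 in the wild-type. The next smallest p-values were those of Kif11 at 1.77 ± 0.25, Ube2c at 1.76 ± 0.26, Ccnb2 at 2.05 ± 0.36 and Cdca8 at 1.59 ± 0.3, all with A above B in 4 of 4 groups and with adjusted p from 0.217 to 0.281 by limma. By size, Cenpf, a kinetochore protein, at 2.11 ± 1.04 and Cdc20, the activator of the anaphase-promoting complex, at 1.95 ± 0.6 also lay above Kif11. Other probe sets past the filter gave smaller values, 0.56 and 0.57 for Cdca8, 0.98 for Kif11, 0.3 and 1.04 for Cdc20 and 0.15 for Cenpf. Those of Rrm2 gave 1.81 and 2.56. In the knockout the mitosis genes had a median of 1.79 with 19 of 19 above 0, and the replication genes 0.77 with 17 of 18. Of all genes, 54.7% were above 0. Plk1 and Aurkb among the mitosis genes passed the filter through the knockout A arrays alone, so their part in this count is a description.

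The difference between the genotypes in A minus B was above 0 for 42 of 46 members, against 60.5% of all genes. The median was 0.62 against 0.16. Among the 37 members that passed the filter also through wild-type arrays it was above 0 for 34, with a median of 0.6. With the covariate for Y-linked genes the median was -0.41, with 20 of 46 above 0. The median of all genes was then -0.38, so the members lay near it. No gene passed the adjusted threshold by limma (0%), and 6 members were higher at an unadjusted p under 0.05 (4.44%). In the fit with no covariate, the median was 0.47 without knockout spleen A and 0.6 and 0.65 without wild-type spleen A and B. It was 0.9 and 1.14 without wild-type and knockout lymph node A.

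**Figure D4:**
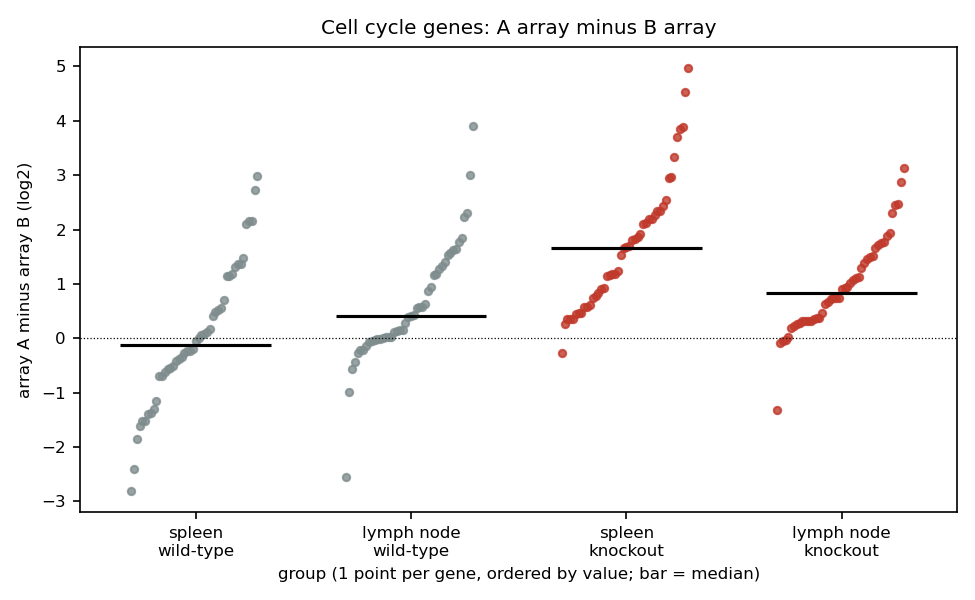
Array A minus array B (log2, vertical axis) within each of the 4 groups, 1 point for each of the 46 tested cell cycle genes, with the median as a bar. The medians are -0.12 and 0.41 in wild-type spleen and lymph node, and 1.67 and 0.83 in knockout spleen and lymph node.

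The A and B arrays also differed in sex-linked transcripts, so the letter and these signals cannot be told apart within a genotype. The Y-linked gene Eif2s3y had a signal of 21.2 and 3.8 on the wild-type A arrays of spleen and lymph node, against 1749 and 1692 on B. In the knockout it was 1116 and 521 on A and 1968 and 1988 on B. Xist, an RNA that coats the silenced X chromosome, was at 5527 and 6355 on the knockout A arrays and at 14.6 and 23.1 on the knockout B arrays. In the wild-type it was at 7624 and 7090 on A and at 4585 and 3565 on B. Wild-type B and knockout A arrays thus had high signals of both Xist and Eif2s3y. Aire itself was between 3052 and 5204 on the wild-type arrays and between 791 and 2376 on the knockout arrays, with an averaged difference of -1.76 ± 0.33 (adjusted p = 0.237 by limma). The labels do not say whether its probe set lies in the deleted part of the gene.

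Marker lists of other cells were read on the same arrays. The mean log2 signal of 12 macrophage markers was 9.53 on knockout spleen A and 9.24 on knockout lymph node A, and 5.89 to 7.91 elsewhere, with 11 of 12 higher in the knockout on average and 12 of 12 higher on A over the 4 groups. C1qa, a complement gene of macrophages, was under the floor on both wild-type B arrays, at 6.77 and 6.47. Plasma cell markers, of which 7 of 8 were tested, were at 9.41 and 7.91 on the knockout A arrays of spleen and lymph node. Elsewhere they were at 5.89 to 8.11, and 7 of 7 were higher in the knockout on average. Neutrophil markers averaged 9.06 on knockout spleen A and 3.61 to 5.13 on the other 7 arrays, and 5 of the 7 measured did not pass the filter. B cell markers were at 7.62 on knockout spleen A and 6.25 on knockout lymph node A, against 5.46 to 6.84 elsewhere, with 2 of 7 higher in the knockout on average and a median of -0.17. Platelet and megakaryocyte markers averaged 7.47 on knockout spleen A and 3.92 to 5.9 elsewhere, with 3 of 3 tested higher in the knockout on average. Erythroid precursor markers averaged 7.43 on knockout spleen A, but 4.45 on knockout lymph node A, the lowest of the 8 arrays. T cell markers ranged from 5.3 to 6.9, NK cell markers from 4.12 to 5.24 and stromal markers from 4.24 to 5.86. Germinal centre markers ranged from 6.83 to 7.48. Dendritic cell markers ranged from 10.51 to 11.13 and were the highest of these cell type lists on every array, although Xcr1 among them did not pass the filter. Ccr7, a dendritic cell marker, was at 8241 to 14752, and Ms4a1, a B cell marker, at 19.9 to 553. The labels do not say whether cells were sorted. The part of these cell types in the difference of the cell cycle genes was not tested.

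**Figure D5:**
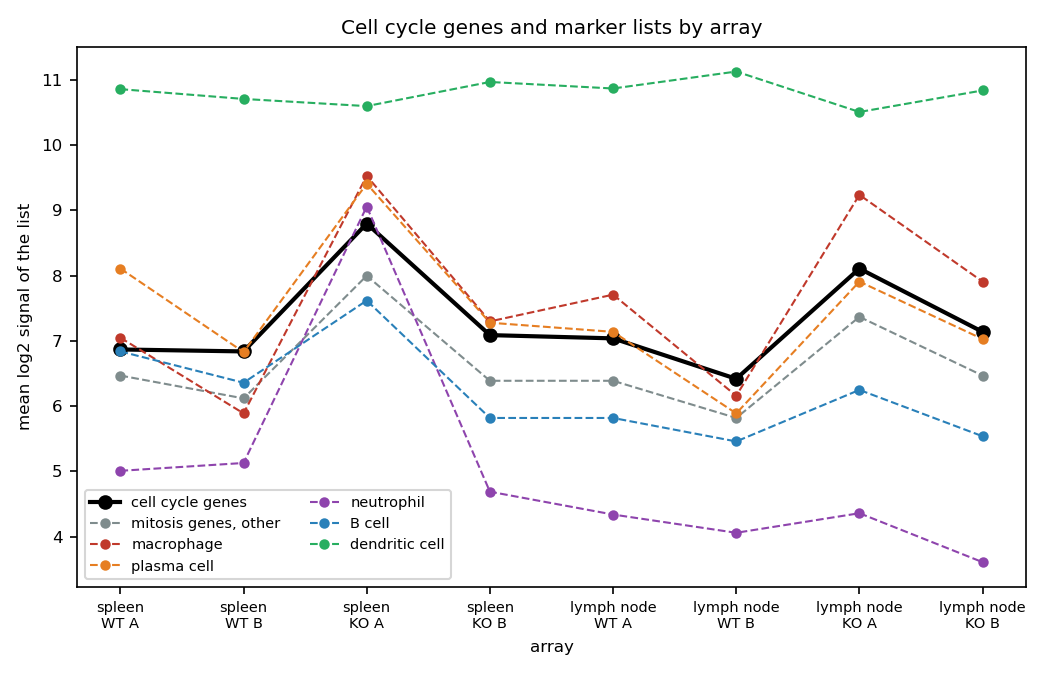
Mean log2 signal (vertical axis) of the cell cycle genes, of other mitosis genes and of 5 lists of cell type markers on each of the 8 arrays. Cell cycle, macrophage and plasma cell genes peak on knockout spleen A, where neutrophil markers reach 9.06, while dendritic cell markers stay between 10.51 and 11.13.

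Other genes of the pathway were read from lists of the same functions. Of 29 tested mitosis genes beyond the members, 29 were higher in the knockout on average, with a median of 0.81, and 27 were higher on A over the 4 groups. Kif22, a chromosome-bound kinesin, was at 1759 and 263 in knockout spleen against 52 and 179 in wild-type spleen. Of 22 further replication genes 19 were higher in the knockout, with a median of 0.6. E2F factors, pocket proteins and partners were mixed, 7 of 11 higher with a median of 0.2, with E2f1 at 1.14 and Rbl2 at -0.4. G1 cyclins and kinases were not shifted upward, with 4 of 9 higher and a median of -0.09. All 10 tested inhibitors and genes of quiescence were lower in the knockout on average, with a median of -0.34, among them Cdkn1a and Cdkn1b, which encode inhibitors of the cell cycle kinases, at -0.34 and -0.41. No gene of these lists passed the adjusted threshold by limma in the averaged knockout difference.

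The measured members had 113 probe sets in all, and 35 members had more than 1. Besides the chosen ones, 35 probe sets of 24 members passed the filter, and 33 of them had the same sign of averaged knockout difference as the chosen probe set. The exceptions were the other probe set of Ccne1, at 0.21, and the next of Top2a, the DNA topoisomerase of mitosis, at -0.06 against 1.39. The names of 14 chosen probe sets end in x_at or s_at, which marks probes that can match more than 1 transcript.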

How the data were processed

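The deposited values are linear intensity values, 1 for each probe set, made by the authors with MAS5 per the submitters' processing notes, with no version given in the sources. Of 45101 probe sets, 34945 carried 1 gene symbol. The array medians ranged over 0.28 (log2), so arrays were shifted to a common median, values under the 20th percentile (9.58) were raised to it, and log2 was taken. Tests used limma 3.58.1 in R 4.3.3 on all 8 arrays with a mean per group (4 residual degrees of freedom, prior 2.96), adjusted by Benjamini-Hochberg over 11557 genes at 0.05. A minus B used the group and the letter, or genotype by letter with tissue (3 residual degrees of freedom). The procedure was tested on simulated data. The number of arrays limits the precision.

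In each role group the members named were the 2 with the smallest p for the averaged knockout difference, the 2 for A minus B and the 1 for spleen minus lymph node. Members of opposite sign and those nearest the filter were added. The members and lists were chosen with earlier results of these data known.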

Additional observations from a re-analysis of the deposited data

Results flagged for a closer look

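Groups of 2 arrays allow no test for outlying arrays. Nuf2, the kinetochore gene, moved in opposite directions in the tissues, with both knockout arrays above both wild-type arrays in spleen and below them in lymph node. The difference between the tissues was 3.49 on the log2 scale, with an unadjusted p of 0.0201 and an adjusted p of 0.999 by limma. Such opposition was present in 386 of all genes tested (3.34%), and its only member was Nuf2, which passed the filter on low signals only through the 2 knockout spleen arrays. Its values are therefore a description.

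For 7 of 46 members A was above B in both knockout groups and below B in both wild-type groups. Of all genes 1426 showed this pattern (12.3%), so the count of members lay near the share of all genes. The difference between the genotypes in A minus B was 4.84 for Aurkb, 2.38 for Gins1 and 1.83 for Mcm2, with adjusted p of 0.749, 0.749 and 0.753 by limma. Aurkb passed the filter only through the knockout A arrays, on which this difference rests, and Ccne2 only through knockout arrays. It was 1.02 for Pcna, 0.93 for Gins2, 0.87 for Mcm6 and 0.6 for Ccne2, with adjusted p from 0.753 to 0.778.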

How the results depend on the processing

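Among the named genes, 12 values reversed, each of Tk1 or Ccne1 in the averaged knockout difference, both near 0. The medians that changed sign are given with their settings. Tk1 was 0.06 with no median scaling, 0.01 after quantile normalization and 0.39 with a covariate for Y-linked genes, and ranged from -0.37 to 0.34 when 1 array was left out. Ccne1 was 0.04 with no median scaling and 0.09 with the mean of its probe sets, and ranged from -0.19 to 0.12. With the trended robust prior 3 members passed for A minus B over the 4 groups, among 34 of all genes tested. In the knockout 4 passed, among 123, and in the wild-type 1, among 13. Those over the 4 groups were Rrm2 (2.69, adjusted p = 0.00597 by limma), Ube2c (1.76, 0.0382) and Cdca8 (1.59, 0.0314). With the Y-linked covariate the median A minus B was 1.62 over the 4 groups, 1.81 in the knockout and 2.23 in the wild-type. Its difference between genotypes was -0.41 with 20 members above 0. The medians of all genes were then 0.19, 0.35, 0.76 and -0.38. Without both knockout A arrays the median knockout difference in spleen was 0.31. The cause of these shifts was not tested.

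When 1 array was left out, the median over the members ranged from 0.31 to 2.03 for the knockout difference in spleen, 0.39 to 1.2 in lymph node and 0.59 to 1.34 averaged, each lowest without the knockout A array and highest without the knockout B array of that tissue (of spleen for the average). The difference between tissues ranged from -0.48 to 1.2 with 10 to 39 members above 0, and spleen minus lymph node from -0.02 to 0.58. A minus B ranged from 0.4 to 1.01 over the 4 groups, 0.8 to 1.87 in the knockout and -0.03 to 0.46 in the wild-type, and its difference between genotypes from 0.47 to 1.14. No member passed the adjusted threshold with any 1 array left out, where the lone array of a group is assumed to vary like the others. With unscaled arrays all genes had a median in the spleen knockout difference of 0.02 in place of -0.09.

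With the letter as a replicate block, the medians were 1.02, 0.7 and 0.98 for the knockout difference in spleen, lymph node and averaged, 0.31 between tissues and 0.15 for spleen minus lymph node, with 0 members called by limma. Members higher at an unadjusted p under 0.05 in the average were then 22, against 14 without the block. The share of all genes at that threshold was not counted with the block. The A minus B deviations of the groups correlated between 0.06 and 0.31 over genes, under 0.1 for 3 of the 6 pairs of groups. The letters were therefore not taken to pair the arrays in the main fit. The value of 0.31 was that of the 2 knockout groups, where Xist was also alike in the tissues, at 5527 and 6355 on A and 14.6 and 23.1 on B. Whether spleen and lymph node arrays of a genotype and letter shared animals was not tested. If they did, the 4 arrays of a genotype were not independent. A random block of genotype and letter (consensus correlation 0.19) called 0 members. The other floors and filters left every member's call and the direction of the medians as they were.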

Other observations

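Genes of growth and ribosome building, which rise with cell proliferation, were also read. Of the 12 tested, 11 were higher in the knockout on average, with a median of 0.17. In the knockout 12 of 12 were higher on A, with a median of 1. The shares of all genes tested were 43.3% and 54.7%. Myc, a driver of growth genes, differed by 1.03 in the averaged knockout difference, at 336 and 113 in knockout spleen against 148 and 105 in wild-type spleen. Srm, which makes spermidine, differed by 1.12. No gene of the list passed the adjusted threshold by limma in the averaged knockout difference.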
